A study of Mus musculus with 141 samples.

Results

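The 9 genes described here are 8 keratins and the transcription factor *Trp63*, out of 17136 genes counted in the series. They were chosen by name. *Krt7*, *Krt8*, *Krt18* and *Krt19* are the keratins of simple epithelia, and *Krt5*, *Krt14*, *Krt15* and *Krt17* are keratins of basal and stratified epithelia. *Trp63* encodes p63, the factor that marks basal cells of the airway.

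The cells came from 1 mouse of 4 months, a male ACID;R26tdTomato animal of strain 129SV, and were sorted as CD31- CD45- E-cadherin+ tdTomato+. In this cross, Cre recombinase knocked into the *Aqp5* locus removes a stop sequence ahead of *tdTomato* at ROSA26, with 1 copy of each allele, so the label stays in any cell that has ever made *Aqp5* together with its descendants. Each cell was caught at a numbered column and row of a Fluidigm C1 chip, a microfluidic plate that lyses cells and amplifies their cDNA one by one. Cells were kept where mitochondrial genes held under 0.15 of the reads, which left 92 and took out 49. The kept cells held 142003 to 2170760 reads each.

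Kept cells were divided by 2 genes. The type 1 class (45 cells) had *Ager* at 5000 CPM (the usual counts-per-million scale) or more, and the type 2 class (11 cells) had *Sftpc* at 8000 CPM or more. No cell had both, and 36 cells formed the rest. On either side of the limits, *Ager* jumped from 1402 to 9335 CPM, and *Sftpc* from 7774 to 25437 CPM, with no cell in between. The submitters' label names every cell as alveolar type 1, whereas 48.9% of the kept cells fell in the type 1 class. Of 10 type 1 markers that do not include *Ager*, a median of 9 were above 100 CPM in cells of the type 1 class, and of 10 type 2 markers without *Sftpc*, a median of 9 were above it in the type 2 class (lowest cell, 4).

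The rest held markers of several airway cell types, so it was divided further after its values had been seen. The 13 ciliated-list cells had at least 50% of 10 ciliated markers above 100 CPM, then 12 *Scgb1a1*-high cells had the club cell secretoglobin *Scgb1a1* at 20000 CPM or more, and 11 cells remained. Among cells of the rest outside the ciliated list, *Scgb1a1* jumped from 2974 to 41995 CPM around that limit. No keratin was used in this division. By the marker lists for club, ciliated and basal cells, with keratins and *Trp63* left out, 15 cells were high in the club list alone, 9 in the ciliated list alone, 1 in the basal list alone, 5 in several lists and 6 in none.

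All cells are 1 sample from 1 mouse, so there is no replicate, no test was made, and differences between classes have no replicate check. A level is the CPM of the summed reads of a class, and the range after it is an exact Poisson 95% interval. Shares carry exact binomial (Clopper-Pearson) 95% intervals. These ranges reflect counting error alone, since reads copied by PCR without molecular identifiers are not independent molecules. A gene with 0 reads in a class was given the limit of 3 reads. A fold of 2 between classes, among the 8975 genes at 10 CPM or more over the kept cells, was taken as a difference of size and not of significance.

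Keratins build the intermediate filaments of epithelial cells and do so in pairs of a type II and a type I chain. *Krt5*, *Krt7* and *Krt8* are type II chains, and *Krt14*, *Krt15*, *Krt17*, *Krt18* and *Krt19* are type I chains. *Krt8* with *Krt18* is the common pair of simple epithelium, and *Krt5* with *Krt14* that of basal cells. Basal cells sit on the basement membrane of the large airways and serve as their stem cells, with p63 needed for that state.

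The mouse keratin genes lie in 2 clusters, type II on chromosome 15 and type I on chromosome 11, with *Krt18* as the type I gene placed among the type II genes. In GRCm38 with GENCODE vM21, *Krt5* lies at chr15:101707070-101712898 on the minus strand, *Krt8* at chr15:101996698-102004482 on the minus strand, *Krt18* at chr15:102028180-102032027 on the plus strand and *Krt7* at chr15:101411043-101430313 on the plus strand. *Krt8* and *Krt18* stand head to head 23.7 kb apart, and 284 kb separate *Krt5* from *Krt8*. On chromosome 11, *Krt15* (100131758 to 100135928) and *Krt19* (100140810 to 100148665) are neighbours 4.88 kb apart, and *Krt14* (100203162 to 100207548) and *Krt17* (100256217 to 100261029) follow, all on the minus strand. *Trp63* covers chr16:25683763-25892102 on the plus strand.

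The stretches ahead of the start sites of *Krt5*, *Krt8* and *Krt18* are printed because *Krt8* and *Krt18* form the simple pair, while *Krt5* and *Krt8* did not both reach 100 CPM in any kept cell. They come from RefSeq (GRCm38.p6), read 5′ to 3′ on the gene's own strand, and end before the first annotated transcript. Capitals mark CATG, the core of many p63 binding sites, and ATAAA, a form of the TATA box, read on either strand. GGGCGG, the GC box, was searched too.
Krt5, chr15:101712906-101713155, minus strand: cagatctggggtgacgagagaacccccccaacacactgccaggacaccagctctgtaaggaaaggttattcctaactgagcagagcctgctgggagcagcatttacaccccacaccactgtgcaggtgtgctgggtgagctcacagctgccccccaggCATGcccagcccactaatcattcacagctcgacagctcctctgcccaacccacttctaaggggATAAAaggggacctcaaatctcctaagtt
Krt8, chr15:102004483-102004592, minus strand: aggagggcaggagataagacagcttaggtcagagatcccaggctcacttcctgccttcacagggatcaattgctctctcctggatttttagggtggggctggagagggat
Krt18, chr15:102027966-102028179, plus strand: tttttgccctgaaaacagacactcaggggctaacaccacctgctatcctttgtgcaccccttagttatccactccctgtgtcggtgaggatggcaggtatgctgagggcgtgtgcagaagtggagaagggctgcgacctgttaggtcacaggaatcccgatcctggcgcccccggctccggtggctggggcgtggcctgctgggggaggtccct
The *Krt5* stretch of 250 bases held 1 CATG and 1 ATAAA, and the shorter *Krt8* and *Krt18* stretches (110 and 214 bases) held neither. GGGCGG was in none of the 3. Over all 250-base stretches of the table, 53.9% held CATG, 37.2% ATAAA and 32.97% GGGCGG, so such matches are common and are given as a description. Of the 9 members, 5 had an entry in the table.

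Across classes the keratins split by kind. Simple keratins had reads in all 92 kept cells, whereas basal keratins and *Trp63* were at or near 0 in the type 1 and type 2 classes and far above that in part of the rest. In the type 1 class 94 of 80724 keratin reads, or 0.116% (0.0941 to 0.142), were from the 4 basal keratins. Type 2 cells had a share of 0.149% (0.0943 to 0.223; 23 of 15462 reads), and the rest one of 39.7% (39.36 to 39.98; 38433 of 96886 reads). Counting reads per kb of exon left these shares at 0.184%, 0.15% and 41.4%.

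**Figure D1:**
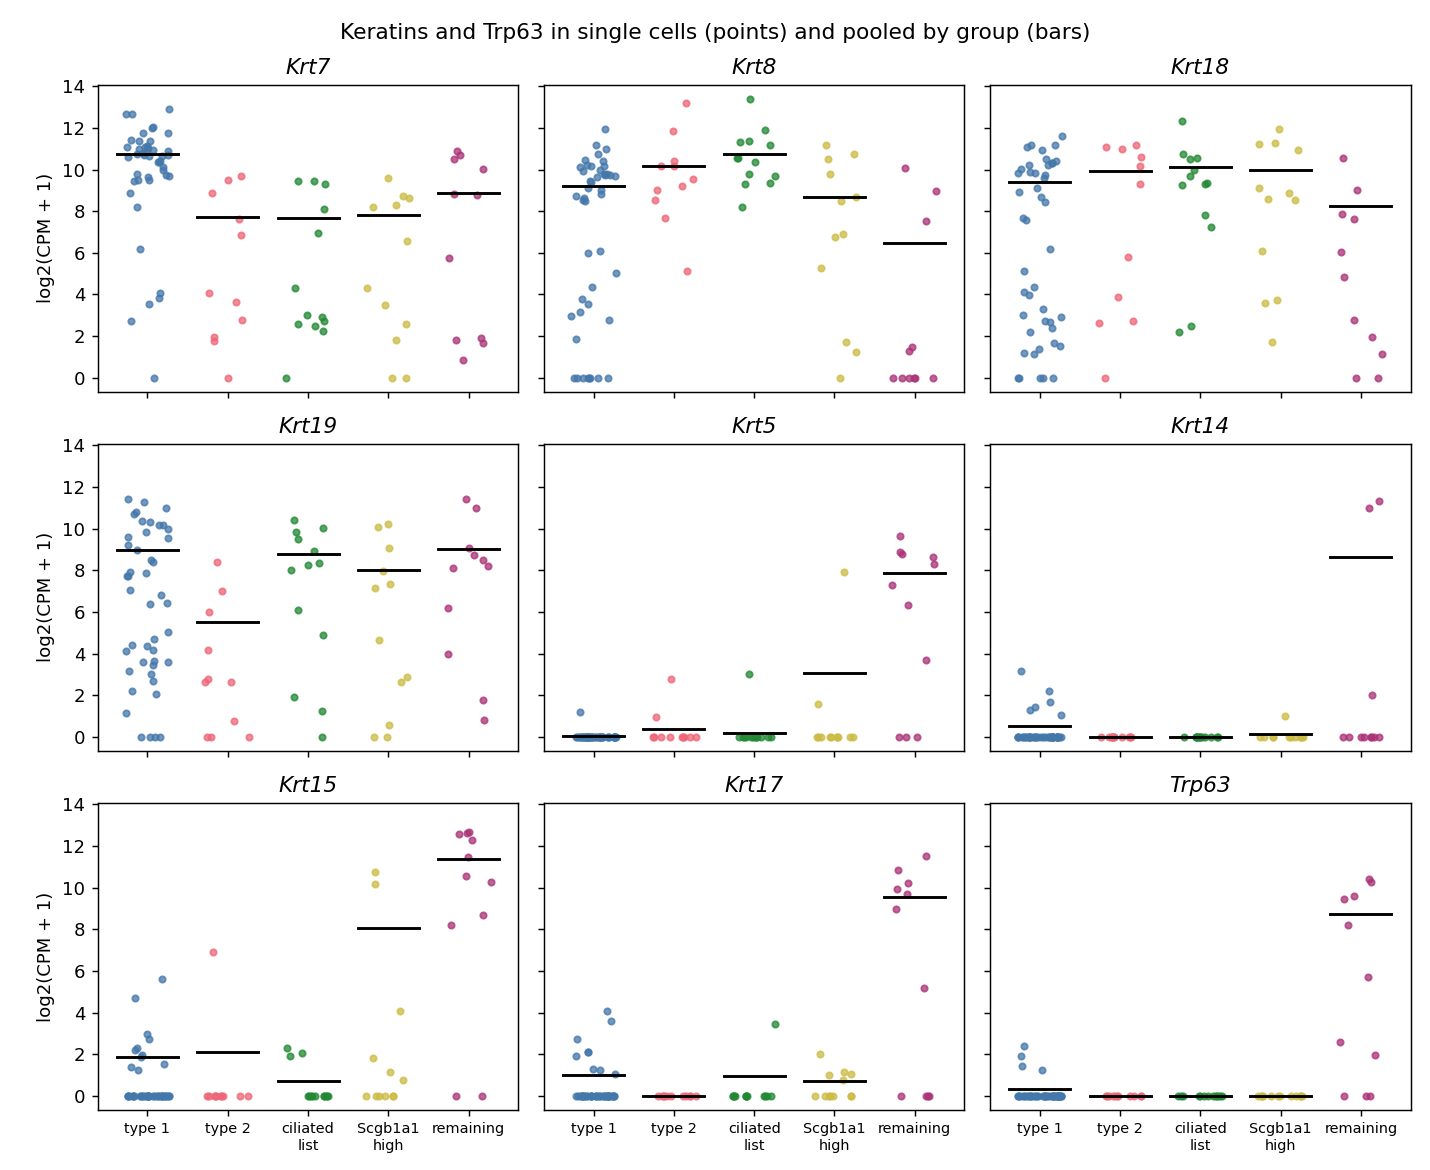
Level of each member, as log2(CPM + 1), in each kept cell (points) and in the summed reads of each group (horizontal bars), by group on the x axis. Simple keratins spread over all 5 groups, and the 4 basal keratins and *Trp63* reach 100 CPM in 13 cells outside the type 1 class, with *Trp63* at that level in 5 cells, all of them remaining cells.

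Against the type 1 class, 5 members were at least 2-fold higher in the rest (*Krt5*, *Krt14*, *Krt15*, *Krt17* and *Trp63*), where 32.1% of all tested genes were. *Krt7* alone was at least 2-fold lower (32.6% of all tested genes), and *Krt8*, *Krt18* and *Krt19* lay within 2-fold. The median log2 ratio over the 9 members was 7.95, against -0.05 over all tested genes. In the type 2 class against the type 1 class, *Krt7* and *Krt19* were at least 2-fold lower, as were 51.4% of all tested genes. The other 4 (*Krt5*, *Krt14*, *Krt17*, *Trp63*) had no more than 2 reads in the type 2 class and no more than 23 in the type 1 class, so no fold is given for them, and *Krt8*, *Krt18* and *Krt15* lay within 2-fold. *Krt15*, at 21 against 60 reads, passed 2-fold upwards in the type 2 class with class limits at 50% of their values (log2 ratio 1.604), as a mean over cells (2.24) and in chip columns 11 to 20 (2.66). As reported, no member with more than 2 reads in the type 2 class was at least 2-fold higher there (21.9% of all tested genes were). In the rest against the type 2 class, the 4 basal keratins, *Trp63* and *Krt19* were at least 2-fold higher (51.8% of all tested genes) and none was lower (18.9%). For the type 2 against the type 1 class the median log2 ratio over the members was -3.01, or 0.32 with members without type 2 reads set to 3 reads, against -1.21 and -0.86 over all tested genes. The comparisons share classes and are not independent of one another.

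*Krt7*, a type II keratin of simple and glandular epithelium, was highest in the type 1 class. It reached 1712 CPM (1695 to 1729) there, with single cells between 0 and 7586 CPM and a median of 1607, and 39 of 45 cells had 100 CPM or more. In the type 2 class it was 213 CPM (202 to 224; cells from 0 to 838, median 15.7), and in the rest 298 CPM (291 to 304; cells from 0 to 1911, median 36.05). The type 1 level was thus 8.05 times that of the type 2 class and 5.75 times that of the rest. Cells overlapped, as 5 of 11 type 2 cells and 16 of 36 cells of the rest also had 100 CPM or more. A single type 2 cell held 44.1% of that class's *Krt7* reads, and without it the class stood at 133.9 CPM.

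*Krt19*, a type I keratin that lacks most of the tail domain, was high in the type 1 class and in the rest and low in the type 2 class. It stood at 501 CPM (492 to 510) in the type 1 class, with cells between 0 and 2711 and a median of 110.9, and at 393 CPM (385 to 400) in the rest. Among type 2 cells it was 45.1 CPM (40.1 to 50.6), with a median cell of 5.28 and a highest cell of 339, and 1 cell gave 79.1% of these reads (10.5 CPM without it). The type 1 level was 11.1 times that of the type 2 class. Chip columns 1 to 10 alone gave 318 CPM in the type 1 class and 229 CPM in the rest, and columns 11 to 20 gave 668 CPM in the rest.

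*Krt8*, the type II chain of the simple pair, was 600 CPM (590 to 610) in the type 1 class, where cells ranged from 0 to 3924 with a median of 451. It stood at 1166 CPM (1140 to 1192) in the type 2 class, with a median cell of 743, and 10 of 11 type 2 cells had 100 CPM or more against 27 of 45 type 1 cells. The ratio of type 2 to type 1 was 1.94, just inside the limit of 2, and with each cell weighted equally the log2 ratio passed it (1.43). That passing value depends on the type 2 cell with the highest *Krt8*, 9401 CPM at chip column 20 row 17, and without it the equally weighted ratio lies within 2-fold. This cell also had the lowest *Sftpc* of its class (25437 CPM) and only 4 of 10 type 2 markers above 100 CPM. In summed reads the log2 ratio also passed 2-fold in chip columns 1 to 10 (1.20), which do not hold that cell. It stayed within 2-fold in columns 11 to 20. In the rest *Krt8* was 664 CPM (655 to 674), 1077 CPM as a mean over cells and 1009.5 CPM in columns 11 to 20.

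*Krt18*, the type I chain of the simple pair, lay within 2-fold between the 3 classes over all chip columns. In columns 11 to 20 alone the log2 ratio of the rest to the type 1 class was 1.03, just past 2-fold. It was 674 CPM (663 to 684) in the type 1 class, 960 CPM (937 to 984) in the type 2 class and 806 CPM (795 to 817) in the rest. Single cells ranged from 0 to 3121 CPM in the type 1 class, with a median of 188 and 23 of 45 cells at 100 CPM or more, so the spread between cells of a class was wider than the gap between classes.

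Compared per length of the gene, the order of the simple keratins in the type 1 class depended on the length taken. *Krt18* was highest by either length, at 469 CPM per kb. In reads without regard to length *Krt7* was highest, at 1712 CPM against 674 CPM for *Krt18*. *Krt7* came second at 418 CPM per kb of its longest protein-coding transcript (4.094 kb) but last at 243 CPM per kb over all annotated exons (7.049 kb), with *Krt8* at 306 CPM per kb. In the type 2 class *Krt18* (668 CPM per kb) and *Krt8* (595 CPM per kb) stood far above *Krt7* (51.9) and *Krt19* (28.6) by coding transcript. The methods name the C1 mRNA Seq HT kit, with cell barcodes added on the chip and a second read of 120 bases. They do not state which part of the transcripts the reads cover. The values per kb hold only if reads spread over whole transcripts. If reads come from transcript ends alone, dividing by length is no correction and the order in CPM stands. One processed pseudogene, *Krt8-ps*, matches *Krt8* over 941 bases at 98.6% identity, and it is not among the counted genes. No other gene matched a member over 100 bases at 95% identity.

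Within single type 1 cells the simple keratins were not all present together. Of 45 cells, 7 had all 4 at 100 CPM or more, 16 had 3, 15 had 2, 6 had 1 and 1 had none. For the pair *Krt8* and *Krt18*, 13 type 1 cells had both at 100 CPM or more, 14 had *Krt8* alone, 10 had *Krt18* alone and 8 had neither, and Spearman's rho over the 45 cells was -0.07. By contrast 11 of 13 ciliated-list cells had both and the other 2 had *Krt8*. Over all 92 cells rho between *Krt8* and *Krt18* was 0.09, as a description of cells that share 1 mouse and differ in depth.

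**Figure D2:**
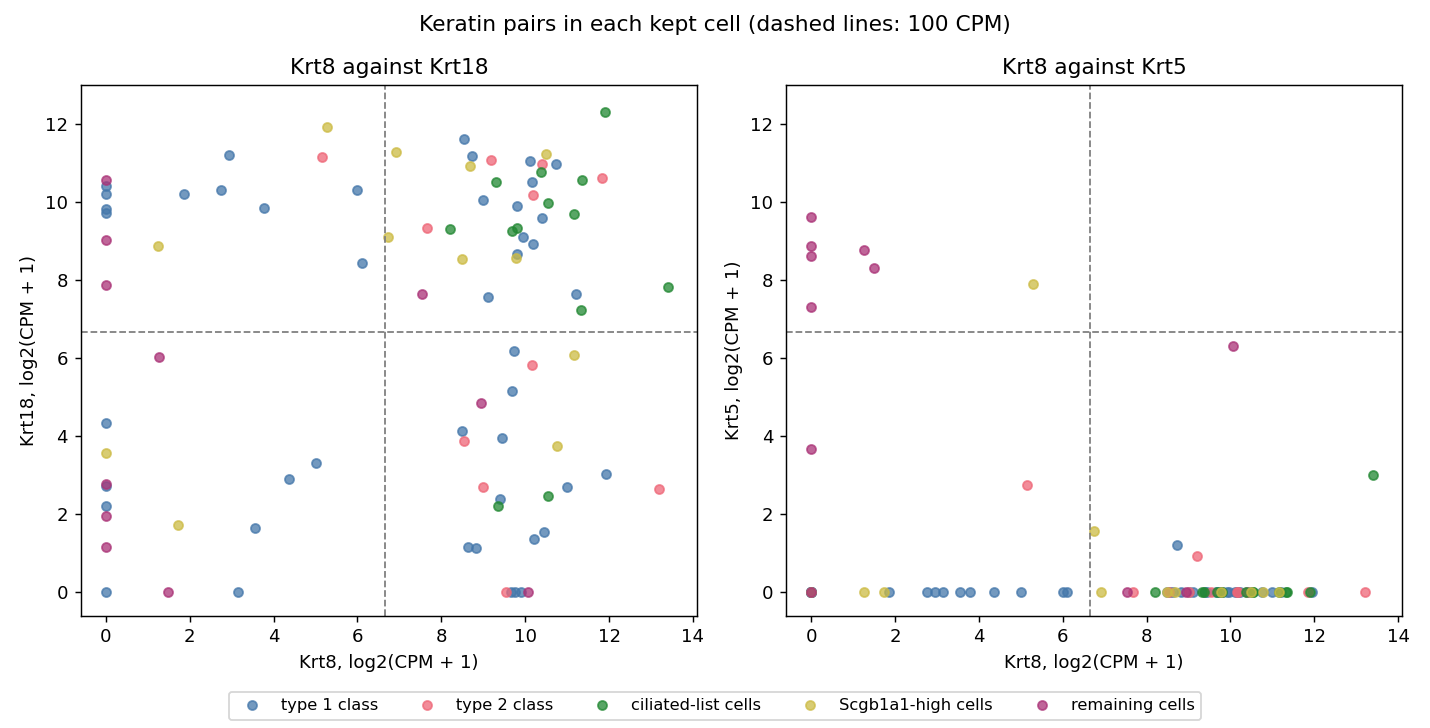
*Krt8* against *Krt18* (left) and against *Krt5* (right) in each kept cell, as log2(CPM + 1), with dashed lines at 100 CPM. *Krt8* and *Krt18* are seen alone or together (36 of 92 cells have both at 100 CPM or more), and no cell lies above both lines for *Krt8* and *Krt5*.

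The balance of type II and type I chains was read both per kb and in reads. The genes differ in length, and division by length is a correction only if reads spread over whole transcripts. Per kb of coding transcript the values were as follows. Type II chains were 0.918 times type I chains in the type 1 class, 0.926 times in the type 2 class and 0.278 times in the rest, and within the rest 0.878 times in the ciliated-list cells, 0.259 times in the *Scgb1a1*-high cells and 0.0941 times in the remaining cells. Over all exons the first 3 values were 0.741, 0.901 and 0.269. In reads without regard to length, type II chains exceeded type I chains in the type 1 class (1.96 times), the type 2 class (1.37) and the ciliated-list cells (1.24), but not in the rest as a whole (0.41). Which chain type came out ahead in the type 1 class, the type 2 class and the ciliated-list cells thus depended on the measure. A type II keratin without any of the 5 type I keratins at 100 CPM was seen in 9 of 45 type 1 cells and 4 of 11 type 2 cells, and the reverse in 1 type 1 cell. In the rest it was seen in 5 of 36 cells, 4 of them among the 12 *Scgb1a1*-high cells, and the reverse in 1 cell. Depth was lower in the type 1 and type 2 classes (medians of 468718 and 413806 reads a cell) than in the rest (693389 reads). The *Scgb1a1*-high cells had a median of 877306 reads. The part of depth in the missing partners was not tested.

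The simple keratins differed between the groups of the rest. The remaining cells are not all airway cells by their markers. The cells at column 5 row 5 and column 8 row 21 each had 4 fibroblast markers above 100 CPM and no read of *Epcam*. Both are counted in the values below, with *Krt8* at 0 CPM in the first and 184 CPM in the second. *Krt8* was at 100 CPM or more in 13 of 13 ciliated-list cells, with 1696 CPM (1667 to 1726) in all and single cells from 295 to 10760 CPM. It stood at 406 CPM in the *Scgb1a1*-high cells and 87.03 CPM in the remaining cells, where 6 of 11 cells had no read of it. *Krt18* was 1097 CPM in the ciliated-list cells and 1016 CPM in the *Scgb1a1*-high cells against 307 CPM in the remaining cells. *Krt7* and *Krt19* were highest in the remaining cells, with *Krt7* at 203, 224 and 467 CPM and *Krt19* at 439, 255 and 517 CPM in the ciliated-list, *Scgb1a1*-high and remaining cells. The place of *Krt19* rests on the cell at column 17 row 10, which had 1763 reads of it (2700 CPM). Without that cell the remaining cells fall below the ciliated-list cells.

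**Figure D3:**
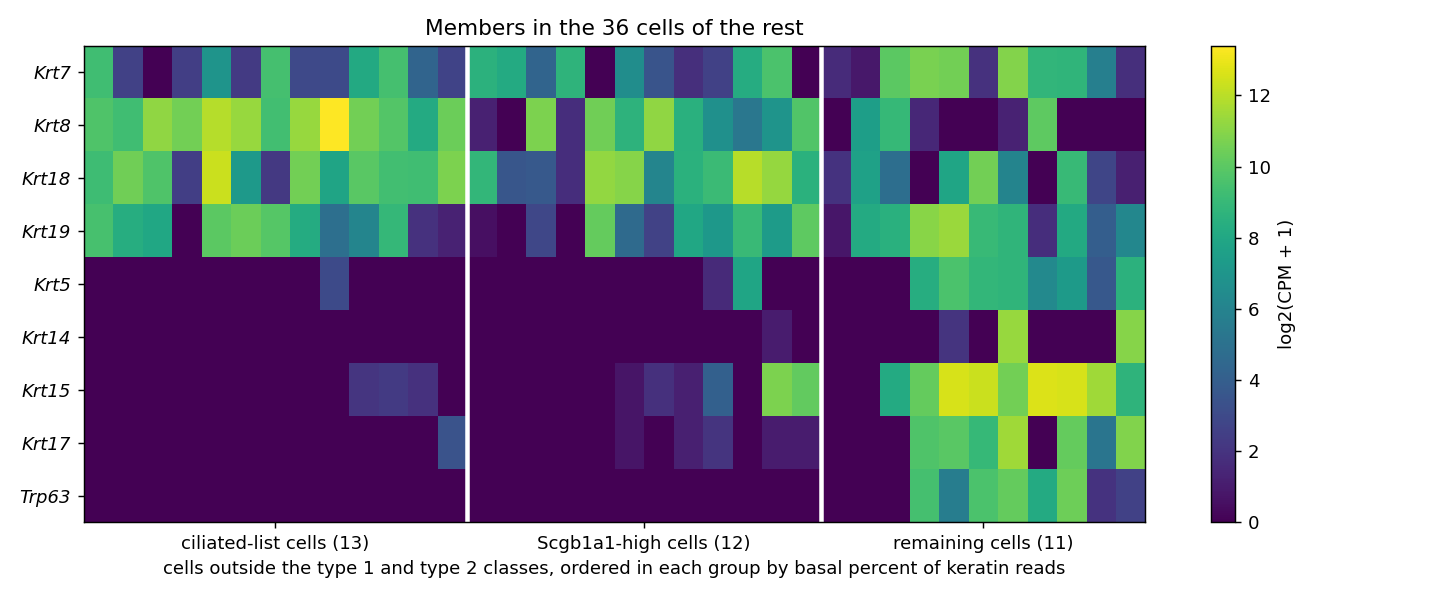
Level of the 9 members, as log2(CPM + 1) by colour, in the 36 cells outside the type 1 and type 2 classes, 1 column per cell. *Krt8* fills the ciliated-list cells, and *Krt15* with *Krt5*, *Krt17* and *Trp63* fills most of the 11 remaining cells, where *Krt8* is mostly absent.

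*Krt15*, a type I keratin of basal cells, was the basal keratin with the most reads. It reached 2634 CPM (2600 to 2668) in the remaining cells, where 9 of 11 cells lay between 291 and 6540 CPM and the other 2 had no read. In the *Scgb1a1*-high cells it was 265 CPM, nearly all of it from 2 cells with 1162 and 1721 CPM that had no read of *Krt5* or *Trp63*. These 2 cells also had 8 and 9 of 10 club markers above 100 CPM. The ciliated-list cells had 5 reads in all. In the rest as a whole *Krt15* was 968 CPM (957 to 980), against 2.59 CPM (1.98 to 3.34) in the type 1 class and 3.24 CPM (2.01 to 4.96) in the type 2 class. All 21 type 2 reads came from 1 cell, at chip column 16 row 6, which had 120.7 CPM of *Krt15* and 7 of 10 club markers above 100 CPM.

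*Krt5*, the type II chain of basal cells, was at 100 CPM or more in 7 of 92 cells. Of these, 6 were remaining cells, with 157, 318, 394, 433, 465 and 786 CPM, and the other was an *Scgb1a1*-high cell with 238 CPM and no read of *Krt14*, *Krt15*, *Krt17* or *Trp63*. In those 7 cells *Krt8* stood between 0 and 38 CPM, and none of the 61 cells with *Krt8* at 100 CPM or more passed that level of *Krt5*. The highest *Krt5* beside *Krt8* was 78.2 CPM, in a cell with 1069 CPM of *Krt8*. *Krt5* summed to 78.7 CPM (75.4 to 82.1) in the rest, 2 reads in the type 2 class and 1 read in the type 1 class, a log2 ratio of rest to type 1 of 10.83 with a counting interval from 8.35 to 16.13.

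*Krt14*, the usual type I partner of *Krt5*, rested on 2 cells. They had 2605 and 2002 CPM and lay at chip column 2 row 24 and column 4 row 3, and no other cell passed 7.92 CPM. With 0 reads in the type 2 class, the rest was at least 278-fold above the limit of 3 reads. *Krt14* in the rest was 128.6 CPM (124.4 to 132.9), 61.9 CPM without the higher of the 2 cells, and 0.198 CPM in chip columns 11 to 20, where the log2 ratio to the type 1 class was -0.60 in place of 8.22, at 2 reads in the rest against 3 in the type 1 class. The other 5 cells with *Krt5* at 100 CPM had no more than 3.06 CPM of *Krt14*, and 4 of these 5 had *Krt15* at 100 CPM or more.

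*Krt17*, a type I keratin of basal cells that also appears in activated epithelium, was at 100 CPM or more in 6 cells, all of them among those with *Krt5* at that level. They had 504, 838, 983, 1211, 1870 and 2888 CPM. In the rest *Krt17* was 245 CPM (239 to 251), against 0.994 CPM in the type 1 class and 0 reads in the type 2 class, at least 529-fold higher than the type 2 limit of 3 reads.

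*Trp63* followed the basal keratins in part. It was at 100 CPM or more in 5 remaining cells, with 294, 706, 766, 1215 and 1367 CPM, and 3 further cells had 50.5, 4.92 and 2.95 CPM. The rest summed to 140.6 CPM (136.2 to 145), or 87.4 CPM without its highest cell, 6 reads fell in 4 type 1 cells, and the type 2 class, the ciliated-list cells and the *Scgb1a1*-high cells had no read. Against the limit of 3 reads this is at least 304-fold higher than in the type 2 class. Over the 36 cells of the rest, Spearman's rho with *Trp63* was 0.85 for *Krt5*, 0.74 for *Krt15*, 0.71 for *Krt17*, 0.45 for *Krt14* and -0.53 for *Krt8*, where *Trp63* had reads in 8 cells and *Krt15* in 18.

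**Figure D4:**
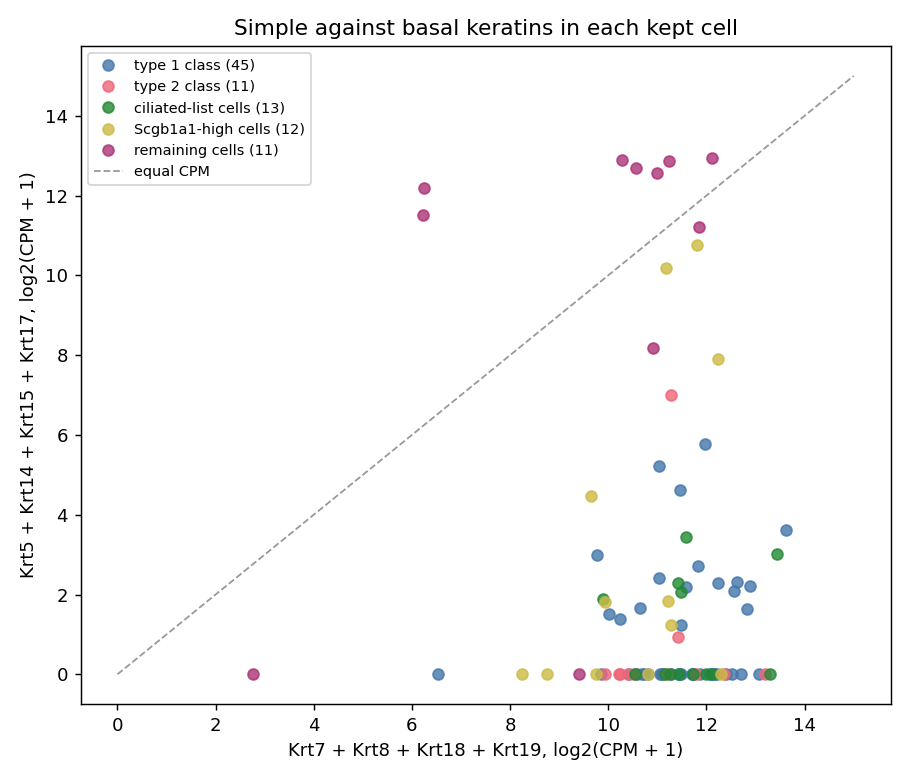
Summed basal keratins (y axis) against summed simple keratins (x axis) in each kept cell, as log2(CPM + 1), with a dashed line of equal CPM. Cells of the type 1, type 2 and ciliated-list groups lie low at high simple keratin, and the 7 cells above the line are all remaining cells.

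More than 50% of keratin reads were basal in 7 cells, all remaining cells, with shares from 64.1% to 98.4%. All 7 had a read of *Trp63*, 4 of them at 100 CPM or more, and 6 had a read of *tdTomato*. The cell at column 2 row 24 combined all the basal keratins with *Trp63* (1215 CPM) and also 1911 CPM of *Krt7*, at a basal share of 75.5%. The cell at column 4 row 3 had a share of 98.4% with *Krt5*, *Krt14*, *Krt15* and *Krt17* at 394, 2002, 413 and 1870 CPM, no simple keratin above 71.4 CPM and 4.92 CPM of *Trp63*. The cell at column 17 row 10 had 786 CPM of *Krt5* and 6097 CPM of *Krt15* beside 1470 CPM of *Krt7* and 2700 CPM of *Krt19*, a share of 64.1%. *Krt15* with little *Krt5* marked the cells at column 8 row 14 (6540 CPM of *Krt15*, 78.2 of *Krt5*, 1069 of *Krt8*) and column 6 row 24 (2848 and 11.8 CPM, with 53.1 CPM of *Krt7* as the highest simple keratin). Basal and simple keratins thus stood together in most of these cells, as 7 of 11 remaining cells had at least 1 of each at 100 CPM or more and 2 had basal keratins alone.

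Of the 10 basal markers without keratins, the remaining cells had between 0 and 8 above 100 CPM. The cell at column 3 row 30 had 8, and the cells at column 12 row 11 and column 4 row 3 had 1 each despite their *Krt5*, so the list did not mark all of them. *Dcn*, a proteoglycan gene of the fibroblast list, was above 1000 CPM in 8 of the 9 remaining cells with *Krt15* at 100 CPM or more, and none of the other 6 counted fibroblast markers was above 100 CPM in any of those 9. The other 2 remaining cells had 4 of 7 fibroblast markers each, and 1 of them, at column 8 row 21, had 7 of 8 mesothelial markers with 184 CPM of *Krt8*, 199 CPM of *Krt18* and 290 CPM of *Krt19*. The second, at column 5 row 5, had no keratin above 2.91 CPM. Neither had a read of a basal keratin or *Trp63*, neither had *Epcam*, and *Cdh1*, the E-cadherin gene of the sort, stood at 1.58 and 1.45 CPM. The summed fibroblast list had a median of 2107 CPM in the remaining cells and of 0 in every other group, and its part in the keratin levels was not tested. Endothelial markers (5 counted) summed to at most 291 CPM in any kept cell, and the 2 counted neuroendocrine markers passed 100 CPM only through *Uchl1*. Of the macrophage and leukocyte list, *Lyz2*, which type 2 cells also make, was 13869 CPM in the type 2 class and *Csf1r* 348 CPM in the type 1 class.

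The few basal reads in the type 1 class lay mostly in chip columns that also held a cell high in the same gene. Basal keratins had a read in 17 of 45 type 1 cells (5 after thinning every cell to 90000 reads) against 2 of 11 type 2 cells and 5 of 13 ciliated-list cells, and no type 1 cell passed 53.6 CPM of basal keratins together. Of the pairs of a type 1 cell with 1 of the 4 basal keratins or *Trp63*, 28 of 81 had a read where the chip column held a cell with 100 CPM or more of that gene, and 3 of 144 where it did not (90 and 10 reads). By chip rows the counts were 7 of 41 and 24 of 184 (59 and 41 reads). Cells with 100 CPM or more were looked for among all deposited cells, kept or left out. This count was chosen after the data had been seen, and the part of the chip columns in these reads was not tested.

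Genes that work with keratins showed no single direction. Of 6 desmosome genes tested (the junctions that anchor keratin filaments between cells), 2 were at least 2-fold higher and 2 lower in the rest than in the type 1 class (32.1% and 32.6% of all tested genes), with a median log2 ratio of -0.03 against -0.05 for all tested genes. *Dsp*, which ties keratins to the desmosome, was 346 CPM in the type 1 class, 184 in the rest and 4.48 in the type 2 class. *Pkp2* was 251, 28.8 and 1.24 CPM in the same order, and *Jup* 172, 85.4 and 108.5 CPM.

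Hemidesmosome genes, which anchor keratins to the basement membrane, went both ways. Of 8 tested, 4 were at least 2-fold higher in the rest than in the type 1 class (*Itga6*, *Itgb4*, *Col17a1*, *Dst*) and 4 lower (*Plec*, *Cd151*, *Lamb3*, *Lama3*), where 32.1% and 32.6% of all tested genes were, with a median log2 ratio of -0.10 against -0.05 for all tested genes. *Lama3* (434 CPM), *Lamb3* (365 CPM) and *Plec* (226 CPM) had the most reads of these 8 in the type 1 class, where *Col17a1* had none and *Itgb4* 0.303 CPM. In the remaining cells *Lamb3* stood at 384 CPM while *Lama3* stood at 5.18 CPM, and *Dst*, which links keratins to integrin, at 546 CPM. Of the same 8, 5 were at least 2-fold lower in the type 2 class than in the type 1 class and none higher, with 51.4% and 21.9% of all tested genes so placed.

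Among linkers and regulators of keratin filaments, 8 were tested and 2 were at least 2-fold higher in the rest than in the type 1 class (*Fam83h*, *Sfn*), none lower and 6 within 2-fold, with a median log2 ratio of 0.31, against 32.1% of all tested genes higher and 32.6% lower. *Ywhae*, a 14-3-3 protein, was 487, 333 and 439 CPM and *Krtcap2* 339, 393 and 271 CPM in the type 1 class, type 2 class and rest. *Sfn*, the 14-3-3 protein of stratified epithelium, was 0.303 CPM in the type 1 class, 9.57 in the type 2 class (all from 1 cell) and 216 in the rest. Among 8 tested genes of the *Trp63* family and its partners or targets, 3 were at least 2-fold higher in the rest (*Perp*, *Fermt1*, *Cdkn1a*) and 2 lower (*Jag2*, *Wwp1*), with a median of -0.32, and the shares over all tested genes were 32.1% and 32.6%. *Perp*, a desmosome protein under p63 control, was 252 CPM in the remaining cells and 12.2 CPM in the type 1 class. It stood at 119.7 CPM in the *Scgb1a1*-high cells, 83.3 CPM in the ciliated-list cells and 45.2 CPM in the type 2 class. None of these last groups had a read of *Trp63*. Of 8 tested regulators tied to simple keratins, 5 were at least 2-fold higher in the rest, against 32.1% of all tested genes (*Klf4*, *Elf3*, *Ehf*, *Grhl1*, *Sox2*) and 1 lower, against 32.6% (*Nkx2-1*, at 210 CPM in the type 1 class and 72.6 CPM in the rest), with a median of 5.27, or 5.04 with a gene without type 1 reads set to 3 reads.

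*Krt8*, *Krt7* and *Krt19* are often named with alveolar cells in transition, and the other genes of that list were read alongside. Of 9 tested, 4 were at least 2-fold higher in the rest than in the type 1 class (*Areg*, *Cdkn1a*, *Sfn*, *Nupr1*), 3 lower (*Hbegf*, *Itgb6*, *Ndnf*) and 2 within 2-fold, where 32.1% of all tested genes were higher and 32.6% lower. The type 2 class had 5 at least 2-fold higher than in the type 1 class (*Areg*, *Cdkn1a*, *Sox4*, *Sfn*, *Nupr1*) and 2 lower (*Itgb6*, *Ndnf*), where 21.9% of all tested genes were higher and 51.4% lower. For *Sfn* all type 2 reads came from 1 cell. The 3 with the most reads in the type 1 class were *Lgals3* (750 CPM), *Ndnf* (698) and *Itgb6* (352).

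Other keratins were few. Besides the 8 member keratins, 4 rows with a keratin name and number were counted. *Krt23* was 379 CPM (365 to 395) in the type 2 class, from 3 of 11 cells (195 CPM without 1 cell that held 60.3% of the reads), and 134.5 CPM in the *Scgb1a1*-high cells, from 9 of 12, against 14 reads in the type 1 class. *Krt80* came from 1 type 1 cell (1124 CPM) and 1 remaining cell (898 CPM) apart from 1 read, *Krt10* from 3 type 1 cells and 1 type 2 cell, and *Krt222* had no read in the kept cells.

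Over the 92 kept cells and 8590 genes, the genes closest to each member by Spearman's rho were *Aqp3* (0.64), *Dcn* (0.62) and *Abi3bp* (0.62) for *Krt5*, and *Fxyd3* (0.69), *Ltbp4* (0.65) and *Dapl1* (0.63) for *Krt15*. For *Krt17* they were *Sult1d1* (0.60), *Plch2* (0.53) and *Ifitm1* (0.52), for *Trp63* *Plch2* (0.72), *Gm22582* (0.60) and *Ifitm1* (0.58), and for *Krt14* *Gnmt* (0.53), *Znrd1* (0.51) and *Armc5* (0.48). *Krt7* was closest to *Tns1* (0.63), *Tspan8* (0.62) and *Akap5* (0.62), of which *Akap5* was 1878 CPM in the type 1 class and no more than 2.46 CPM in any other group. The other simple keratins had weaker neighbours: *Krt8* had *Gm12338* (0.41), *Cox7c* (0.40) and *1700003M02Rik* (0.37), *Krt18* had *Gm15776* (0.45), *Gm3150* (0.44) and *Mrpl14* (0.43), and *Krt19* had *Ckap4* (0.37), *Dusp1* (0.36) and *Tsta3* (0.35). The cells share 1 mouse and 1 chip and differ in class and depth, and the basal genes have reads in 10 to 30 cells each, so these values rank genes and show no more. Of the 10 cells with a read of *Krt14*, only 2 had it at 100 CPM or more, so its ranks rest largely on cells with trace reads.

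The lineage label was read beside the keratins. *tdTomato* was 122.6 CPM (118.1 to 127.2) in the type 1 class, 35.97 CPM in the type 2 class (2 of 11 cells with a read, and 9.81 CPM without the 1 with more reads) and 60.3 CPM in the rest, with 83.2 CPM in the remaining cells, where 9 of 11 cells had a read. *Aqp5* itself was 643 CPM in the type 1 class and 51.2 CPM in the remaining cells, where 3 of 11 cells had 100 CPM or more.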

How the data were processed

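The lung of 1 mouse gave single-cell libraries of which 92 were kept and 49 left out. The authors used Trim Galore and FastQC on the reads, HISAT2 for mapping on GRCm38 and featureCounts for counting per gene (versions, strand setting and annotation are not given in the sources used here), and deposited raw read counts. Cells held 91402 to 2170760 reads. No molecular identifiers are stated.

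The members, gene lists and classes were chosen with earlier results of these data known. Cells with at least 15% of reads on the 37 mt- genes were left out. Counts were summed per class and given as CPM, with exact 95% intervals, and detection was also read after thinning to 90000 reads. Genes at 10 CPM or more were compared by log2 ratio, with no test, since all cells are 1 sample. The genes named are the 9 members, the other counted keratins, the 3 nearest genes by Spearman's rho of each member with reads in at least 10 kept cells, and from each list the 3 with the most reads in the class discussed. Other genes of a list, the *Scgb1a1* limit and single cells named by chip site were chosen after their values were seen. Other marker lists (neuroendocrine, endothelial, macrophage, mesothelial, fibroblast) were used to look for other cells. One gene list is given without an item that is not reported here. Sequences were matched to GENCODE vM21 with blastn 2.17.0. Doublets were not called by software. Python 3.11.15, numpy 2.4.6, pandas 2.3.3, scipy 1.17.1, R 4.3.3 and scran 1.30.0 were used, and the ratio was tested on simulated data. Alternatives changed the mitochondrial maximum, class limits, total reads, weights, chip columns, fold limit and filters.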

Additional observations from a re-analysis of the deposited data

Results flagged for a closer look

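The 49 cells left out by the mitochondrial limit were used in no comparison of classes as reported. They entered only the alternatives with a higher mitochondrial maximum or none, and the search for high cells in chip columns and rows. These cells held reads of 8 of the 9 members above the limit of 3 reads. Their reads numbered 278 for *Krt5*, 2207 for *Krt15*, 875 for *Krt17*, 4 for *Trp63*, 7314 for *Krt7*, 7465 for *Krt8*, 15686 for *Krt18* and 3231 for *Krt19*.

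By the same limits on *Ager* and *Sftpc* these cells divide into 19 of the type 1 class, 16 of the type 2 class and 14 others. *Krt7* was 757 CPM in the 19 left-out type 1 cells against 1712 CPM in the kept ones, *Krt8* 260 against 600 CPM, *Krt18* 122.2 against 674 CPM and *Krt19* 238 against 501 CPM. In the 16 left-out type 2 cells *Krt8* was 801 CPM against 1166 CPM in the kept ones, *Krt18* 1141 against 960 CPM, *Krt7* 285 against 213 CPM and *Krt19* 72.1 against 45.1 CPM. Among the 14 others, 1 cell alone had *Krt5*, *Krt15* or *Krt17* at 100 CPM or more, *Krt14* had no read, and *Krt18* reached 2331 CPM.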

How the results depend on the processing

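All cells are 1 sample of 1 mouse, so nothing here measures variation between animals. No paired analysis was possible because there is 1 mouse and no replicate to pair. In what follows, the cell with most reads is not the deepest cell. For the basal share it is the cell of a class with most basal keratin reads. For ratios and counts of genes it is, gene by gene, the cell of each class with most reads of that gene. Member ratios and levels were counted once for each alternative, so the same ratio or level enters these counts repeatedly. They are not separate ratios or levels. Of 147 such values for log2 ratios of members past 2-fold as reported, 1 turned (*Krt14*) and the others kept their direction and their side. Of the values for ratios within 2-fold as reported, 9 passed it and 10 changed sign while staying within it. Of 180 such values for member levels at 100 CPM or more, 10 moved by over 1.5 times, and the cause was not tested. With scran size factors the median log2 ratio of all tested genes moved from -0.05 to -0.22 for the rest against the type 1 class and from 1.20 to 0.95 against the type 2 class. Over all alternatives the first lay between -0.22 and 0.33. For the type 2 against the type 1 class, -1.21 as reported, the median lay between -4.30 without the cell with most reads and -0.90 with no maximum. Those same settings gave 4.34 and 0.85 for the rest against the type 2 class, the ends of its range. The share of basal keratin reads, 0.116% in the type 1 class, was 0.0878% with a mitochondrial maximum of 0.10, 0.0792% without the cell with most reads, 0.164% in chip columns 1 to 10, 0.0599% in columns 11 to 20, 0.0499% without cells high in another list (chosen after seeing the data) and 0.184% per kb of exon. In the type 2 class, at 0.149%, the first 5 of these gave 0.0121%, 0.00666%, 0.0134%, 0.274% and 0.00757%, and it was 0.419% with class limits at 50% of their values, 0.511% with scran size factors and 0.396% as a mean over cells, since 1 cell holds 95.7% of its 23 reads. The rest, at 39.7%, gave 42.3% and 41.5% with maxima of 0.10 and 0.20, 37.02% with no maximum, 40.6% with the lower class limits, 29.5% with scran, 33.9% as a mean over cells, 34.4% without the cell with most reads, 45.8% and 32.8% in the column ranges, 39.1% without cells high in another list and 41.4% per kb. At least 5 reads of a basal keratin were in 6.67% of type 1, 9.09% of type 2 and 38.9% of other cells, and 11.1% of type 1 cells had a read after thinning. Without the minimum of 10 CPM, 6098 genes were higher and 4545 lower in the rest than in the type 1 class, 3322 higher in the type 2 than the type 1 class, and 7821 higher and 2762 lower in the rest than in the type 2 class. With a limit of log2 2 the counts were 1877 and 1747, 1111, and 959 lower in the last. With each gene's own top cell left out of each class, 1085 were lower in the last. Members higher in the type 2 than the type 1 class numbered 1 (*Krt5*, 2 reads against 1), 0 with a maximum of 0.20, no maximum or no minimum, 2 with lower class limits, scran or either column range, and 3 as a mean over cells. *Krt8* accounts for the 1 member lower in the rest than in the type 2 class with scran (-1.06) and in columns 1 to 10 (-1.24). *Krt14* in the rest against the type 1 class was -0.60 in columns 11 to 20, where its 2 high cells do not lie, *Krt18* was 1.03 there, *Krt15* in the type 2 against the type 1 class was 1.604 with lower class limits, 2.24 as a mean over cells and 2.66 in columns 11 to 20, and *Krt8* in the type 2 against the type 1 class was 1.04 with scran, 1.43 as a mean over cells and 1.20 in columns 1 to 10. With 50 CPM as the marker limit 0 cells of the rest were high in the basal list alone and 10 in several, and with 40% of a list 0 in the basal, 3 in the ciliated, 14 in several and 3 in none. Adding *Krt13*, *Krt4*, *Krt6a*, *Krt16* and *Krt20* to the keratins was not run, as those genes were not used here.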
